A study of Mus musculus with 24 samples.

Results

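Gene expression in mouse spinal cord was compared between day 7 and day 3 after spared nerve injury, an operation in which the common peroneal and tibial nerves are tied and cut under sevoflurane while the sural branch of the sciatic nerve is left whole. The comparison covered 15594 of the 32884 genes in the deposited table, namely those with a mean FPKM (fragments per kilobase of transcript, scaled to the mapped fragments of the library) of at least 0.5 over 3 input RNA libraries from day 3 and 3 from day 7. A430035B10Rik lay just inside that limit at a mean of 0.501 FPKM, and Des just outside it at 0.49998 FPKM. Both groups carried the same injury, and they differ in the time since surgery. The labels used here give no strain, genotype or age, no cord level or side, and no word on whether a library came from 1 animal or from pooled animals. The series also holds input libraries of day 14 after injury and of sham-operated cord labelled day 3 (nerve exposed, not cut), 3 each, whose levels are set beside the results as description. No sham cord of day 7 was among the samples used here, so a change that follows the injury and one that follows the surgery, the housing or the day of sampling cannot be told apart.

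Cutting the tibial and common peroneal nerves injures the axons of sensory neurons, which end in the dorsal horn, and of motor neurons, whose cell bodies lie in the ventral horn. An injured neuron turns on a growth programme driven by transcription factors such as Atf3 and Jun, and the surrounding glia respond over days. Microglia and astrocytes are the cells usually followed in this model, while oligodendrocytes, which wrap central axons in myelin, depend on a high rate of lipid and sterol synthesis. In bulk tissue such as this, more cells of a type and more RNA per cell cannot be told apart.

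With all 6 libraries, no gene passed the limma test at an adjusted p below 0.05 (0% of the genes tested), the smallest adjusted p was 0.502, and 510 genes had an unadjusted p below 0.05. Day 7 library 3 stood apart from the other 5. Its Pearson correlation with them over log2 values of the genes tested was 0.932 to 0.941, against 0.980 to 0.987 among the others, and the first principal component, 59.2% of the variance, separated it from the rest. Without this library 113 genes were called, 0.725% of those tested, of which 67 were higher on day 7 (0.430%) and 46 lower (0.295%). Unless another fit is named, called refers to these 113 genes, and each one named, except Gm47283, is shown with its value in library 3. The remaining libraries of a day were very close to each other. Over the 95 genes at 200 FPKM or more, the spread of ratios was 1.22 to 1.76% between day 3 libraries and 1.3% between day 7 libraries 1 and 2, against 4.08 to 5.04% between these libraries of different days. Nothing in the labels says that the libraries came from separate animals, so a p-value sets the difference against the spread of libraries and that spread may be technical. When near-identical libraries were averaged, with the other 2 groups included to give 6 samples in all, no gene passed, and 45 had an unadjusted p below 0.05.

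Library 3 separated the called genes by direction. Of the 46 lower genes, 39 lay below every day 3 value in library 3 as well, and their median log2 difference from day 3 was -0.38 in the fit and -0.37 in library 3. Of the 67 higher genes, 29 lay above every day 3 value in library 3 and 34 had the opposite sign there, with a median of 0.25 in the fit and -0.02 in library 3. In library 3, 8163 of the 15594 genes tested were below the day 3 mean and 7431 above it. Over all genes tested, the 3 day 7 values lay wholly above the 3 day 3 values for 6.61% and wholly below for 9.77%. These 2 shares are no background for the called genes, which were chosen by their difference in libraries 1 and 2. The share of all genes with library 3 alone outside the day 3 range was not counted. Most called differences were small, below 0.3 on the log2 scale for 43 higher and 19 lower genes, and at least 1 for 4 higher and 5 lower genes. Leaving out 1 more of the 5 libraries left 18 to 26 calls, and 15 of the 113 genes were called in each of those 5 fits, among them Sprr1a, Gpr17, Mbp, Ugt8a, Mal, Mt2, Sgk1, Ptgds and Erdr1.

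**Figure D1:**
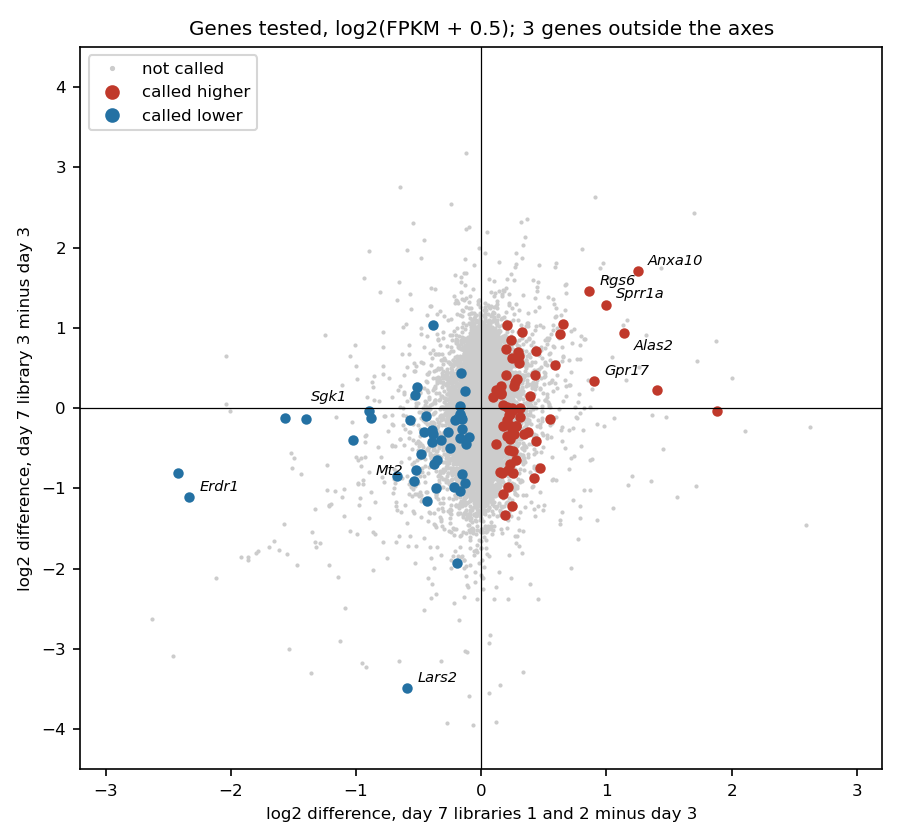
Each point is 1 of the genes tested, with the log2 difference from the day 3 mean in day 7 libraries 1 and 2 on the x axis and in day 7 library 3 on the y axis, both on log2(FPKM + 0.5). Red points are the 67 genes called higher without library 3 and blue points the 46 called lower; the higher points spread to both sides of the horizontal line, with 34 below it, while 40 of the 46 lower points lie below it.

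Some genes of axon injury and regeneration were among the largest increases seen in all 3 day 7 libraries. Sprr1a, a small proline-rich protein that injured sensory neurons make during regrowth (ENSMUSG00000050359, chr3:92483952-92485895, minus strand), was at 15.98, 14.9 and 14.8 FPKM on day 3 and at 31.5, 30.1 and 37.9 FPKM on day 7. Every day 7 library lay far above every day 3 library. The log2 difference was 0.99 ± 0.043 (SE) without library 3 (adjusted p = 0.00198, limma), 1.29 in library 3, and 1.09 ± 0.11 with all 6 (adjusted p = 0.502). Sham cord held 0.416, 0.158 and 1.57 FPKM, and day 14 cord 35.8 ± 2.93 FPKM (SD, n = 3), so day 7 lay near the day 14 level.

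Anxa10, a calcium-dependent phospholipid-binding annexin (ENSMUSG00000031635, chr8:62057042-62123150, minus strand), was close to its sham level of 0 to 0.161 FPKM on day 3, at 0.0894, 0.167 and 0.180 FPKM. On day 7 it was at 1.03, 1.04 and 1.60 FPKM, with a log2 difference of 1.25 ± 0.13 without library 3 (adjusted p = 0.0297) and 1.70 in library 3. Its day 14 level was 1.52 ± 0.110 FPKM (SD, n = 3). At such low FPKM the added 0.5 makes the log2 difference smaller than the ratio of the levels, which was 708% of day 3 in libraries 1 and 2. Anxa10 and Mt2 were the 2 genes called when all 12 input libraries were fitted as 4 groups, each at an adjusted p of 0.0214.

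S100a11, an EF-hand calcium-binding protein that partners annexins (ENSMUSG00000027907, chr3:93520488-93526287, plus strand), was at 7.83, 8.36 and 8.43 FPKM on day 3 and at 13.01, 12.2 and 12.2 FPKM on day 7. The groups did not overlap, and library 3 lay level with the other day 7 libraries. The log2 difference was 0.59 ± 0.048 (adjusted p = 0.0161 without library 3, 0.507 with all 6). Sham cord held 4.58 ± 0.181 FPKM and day 14 cord 10.7 ± 0.943 FPKM (SD, n = 3), so the day 14 mean lay below that of day 7.

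These 3 genes are shown with the 250 bases before their transcription start (RefSeq, GRCm38.p6, strand of the gene), because each of them holds 2 copies of TGAGTCA, the site bound by AP-1, the dimer of Jun and Fos family proteins. Capitals mark the matches, on either strand. The windows are chr3:92485882-92486131 for Sprr1a, with matches that begin 146 and 116 bases before the start, chr8:62123194-62123443 for Anxa10, with matches at 180 and 16 bases, and chr3:93520246-93520495 for S100a11, with matches at 136 and 38 bases.
Sprr1a: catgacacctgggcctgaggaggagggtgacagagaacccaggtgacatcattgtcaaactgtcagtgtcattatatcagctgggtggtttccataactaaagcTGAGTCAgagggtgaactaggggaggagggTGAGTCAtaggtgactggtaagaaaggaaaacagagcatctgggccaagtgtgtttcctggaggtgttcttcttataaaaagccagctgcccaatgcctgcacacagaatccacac
Anxa10: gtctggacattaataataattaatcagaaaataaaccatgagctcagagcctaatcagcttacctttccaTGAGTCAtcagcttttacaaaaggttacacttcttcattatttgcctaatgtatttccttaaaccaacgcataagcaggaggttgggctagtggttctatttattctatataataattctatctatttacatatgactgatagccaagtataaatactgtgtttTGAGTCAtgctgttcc
S100a11: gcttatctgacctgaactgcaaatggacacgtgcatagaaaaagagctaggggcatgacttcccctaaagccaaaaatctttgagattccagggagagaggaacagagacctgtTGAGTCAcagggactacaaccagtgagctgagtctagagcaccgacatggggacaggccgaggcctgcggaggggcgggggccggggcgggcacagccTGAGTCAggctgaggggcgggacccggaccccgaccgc

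Promoters with 2 such matches are rare: 55 of 32851 windows of this length (0.167%), and 16 of the 14036 windows of genes tested (0.114%). Of the 50 called higher genes with a promoter entry, 6 held at least 1 match and these 3 held 2. Of the 29 called lower genes with an entry, 2 held 1, and of the 10924 genes tested with an entry, 425 did (3.89%). The motif was picked after the values and the matches had been seen, as 1 of 6 motifs searched first in 29 chosen genes. The others were the metal response element TGCACNC or TGCGCNC, the E-box CACGTG, the D-box TTATGNAA, the CACCC box CACACCC and a sterol response element. A match is a string of letters and no evidence of binding.

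Of the 25 members tested of the axon injury list, 3 were called higher and none lower, against 0.430% of all genes called higher. The median log2 difference was 0.06 without library 3, against -0.01 over all genes. In library 3 it was -0.02, against -0.03 over all genes, with 12 members higher and 13 lower. Wholly above day 3 lay 5 members and wholly below 2, against 6.61% and 9.77% of all genes. Besides Sprr1a and Anxa10 the third called member was Jun, the AP-1 subunit. Jun was at 14.3, 14.2 and 13.9 FPKM on day 3 and 16.6, 17.2 and 14.2 FPKM on day 7. Library 3 lay within the day 3 range for Jun, so the increase was seen in libraries 1 and 2 (log2 difference 0.24 ± 0.029, adjusted p = 0.0441). Sprr1a was called in each of the 5 fits that left out 1 more library, and Anxa10, Jun and S100a11 in none. Atf3, the stress transcription factor that marks axotomised neurons, was not called (adjusted p = 0.0653) but did not overlap, at 6.49, 6.29 and 6.04 FPKM on day 3 and 8.02, 7.75 and 10.5 FPKM on day 7. Sham cord held 0.422 ± 0.141 FPKM of Atf3 and day 14 cord 5.83 ± 0.459 FPKM (SD, n = 3). Gap43, the growth-cone protein, spanned 90.5 to 92.1 FPKM on day 3 and 90.4 to 98.1 FPKM on day 7, with overlap. The neuropeptides Gal and Npy, which injured sensory neurons make, were higher in libraries 1 and 2 and lower in library 3: Gal at 13.03, 12.1 and 5.30 FPKM against 9.34 to 11.6 FPKM on day 3, and Npy at 25.4, 28.5 and 18.2 FPKM against 20.1 to 22.3 FPKM. Of the 12 sensory ganglion markers 4 were tested and none was called: Pou4f1 at 1.36 to 1.79 FPKM, Scn9a at 0.647 to 1.32 FPKM, Isl2 at 0.332 to 1.05 FPKM and P2rx3 at 0.374 to 0.672 FPKM over the 6 libraries. The sodium channel Scn10a was at most 0.0141 FPKM and Trpv1 at most 0.0678 FPKM. The summed level of the list was 3.79 to 4.35 FPKM on day 3 and 4.08 to 4.45 FPKM on day 7, with overlap.

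**Figure D2:**
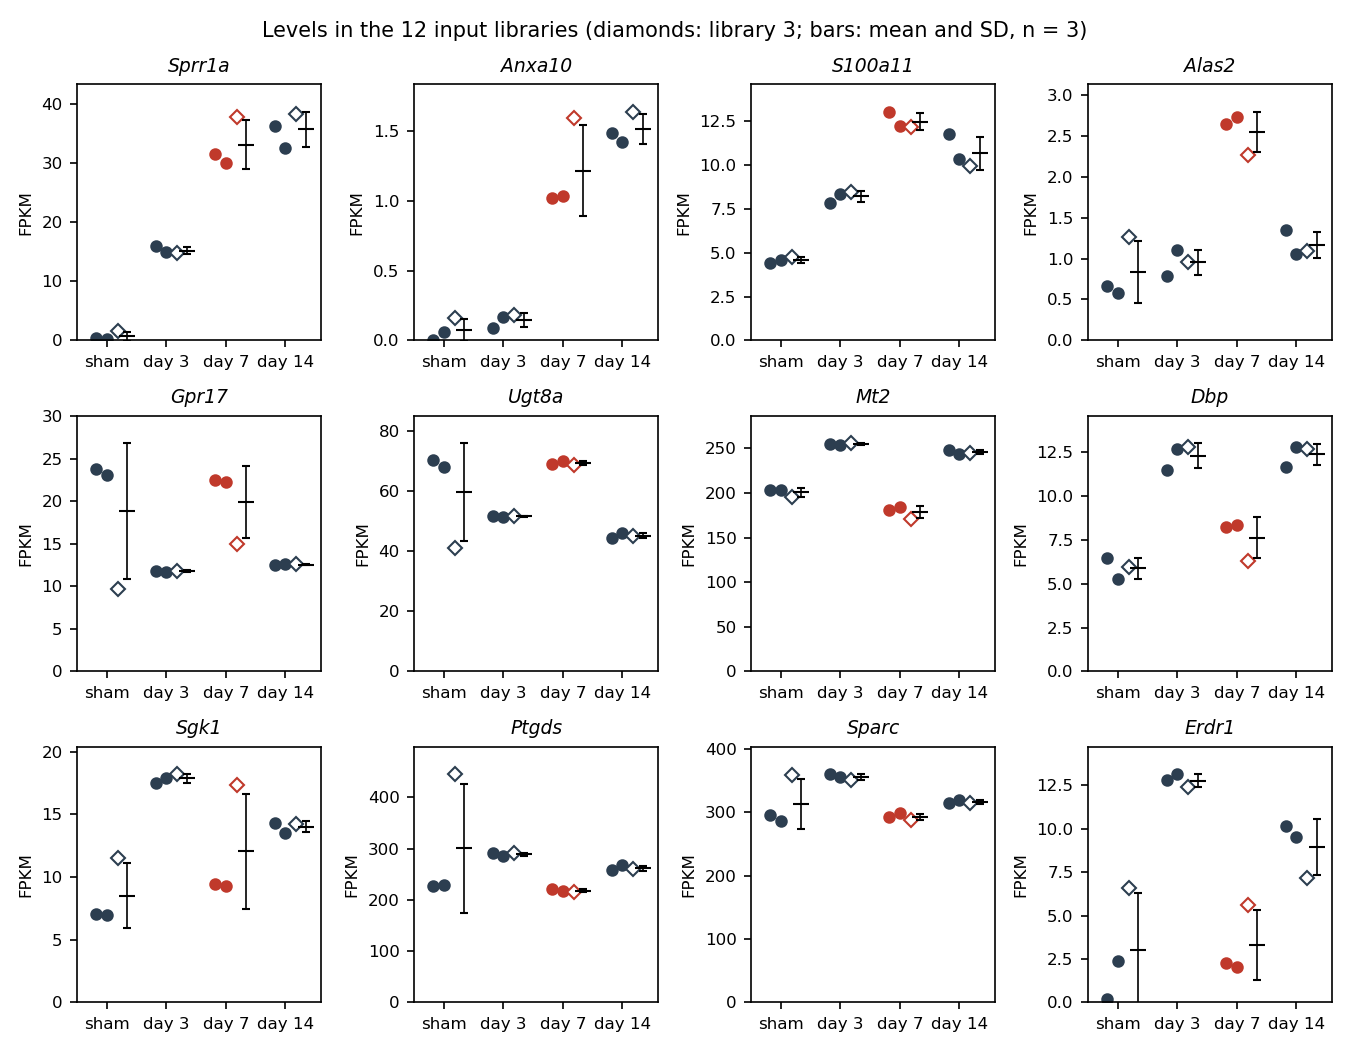
FPKM of 12 genes in the 12 input libraries, by group on the x axis; points are single libraries, red for day 7, open diamonds are library 3 of each group, and the bars give the mean and SD of 3 libraries. In Sprr1a, Anxa10, S100a11 and Alas2 all day 7 points lie above all day 3 points, in Gpr17 and Sgk1 the day 7 diamond lies closer to day 3 than the red circles do, and in Mt2, Dbp, Ptgds and Sparc all day 7 points lie below all day 3 points.

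Red cell transcripts stood higher on day 7, and 1 of them was called. Alas2, the enzyme that begins haem synthesis in erythroid cells (chrX:150547375-150570638), was at 0.792, 1.11 and 0.964 FPKM on day 3 and 2.65, 2.73 and 2.27 FPKM on day 7. The groups were well apart in all 3 libraries (log2 difference 1.14 ± 0.11, adjusted p = 0.0249 without library 3, and 0.94 in library 3). Sham cord held 0.834 ± 0.377 FPKM and day 14 cord 1.17 ± 0.159 FPKM (SD, n = 3), so the day 7 level was above that of each other group. Of the 7 members tested of the erythroid list, Alas2 was the 1 called, against 0.430% of all genes called higher. Wholly above day 3 lay 5 of the 7, against 6.61% of all genes. The median log2 difference of the list was 0.59 without library 3 and 0.31 in it. The beta globin Hbb-bs was at 174, 144 and 146 FPKM on day 3 and 232, 232 and 191 FPKM on day 7, and the alpha globin Hba-a1 at 147, 118 and 118 FPKM and 189, 188 and 147 FPKM. When 1 more of the 5 libraries was left out, Alas2 was called in none of the 5 fits; 4 other members of the list were called without day 3 library 1, which held the most globin of its group, and none without any of the others. The alpha globin copies are near identical, as are the beta globin copies, so reads may be split between them. The summed level of the list was 464 to 557 FPKM on day 3 and 601 to 732 FPKM on day 7. Neutrophil transcripts were low, with S100a8 at 0.874 to 1.39 FPKM on day 3 and 2.08 to 2.67 FPKM on day 7 and S100a9 at 3.90 to 5.10 FPKM and 5.54 to 6.66 FPKM. Lcn2, of the same list, went the other way, at 1.17 to 1.21 FPKM and then 0.88, 0.75 and 0.67 FPKM. Of the 5 neutrophil members tested, 3 lay wholly above day 3 and 1 wholly below, against 6.61% and 9.77% of all genes. None of the 5 was called.

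Myelin genes were higher in day 7 libraries 1 and 2 as a body. Of 19 genes, 12 were called higher and none lower, against 0.430% of all genes, and the median log2 difference was 0.23 against -0.01 over all genes. All 19 were above day 3 in the mean of libraries 1 and 2, and 10 in library 3. Wholly above day 3 in all 6 libraries lay 8, against 6.61% of all genes. Ugt8a, which makes galactocerebroside, the main myelin glycolipid, was the steadiest, at 51.7, 51.4 and 51.6 FPKM on day 3 and 69.0, 70.0 and 68.7 FPKM on day 7. Its log2 difference was 0.43 ± 0.017 (adjusted p = 0.00161) and 0.41 in library 3. Mbp, myelin basic protein, was at 1630, 1623 and 1613 FPKM on day 3 and at 1946, 1946 and 1968 FPKM on day 7. That is 120% of day 3 in libraries 1 and 2 and 121% in library 3 (log2 difference 0.26 ± 0.0083, adjusted p = 0.00066). With quantile normalization of all 6 libraries the difference is 0. That scaling gives the same value to a gene that keeps its rank in every library, so it cannot show a change in such a gene. Mal, a raft proteolipid of the myelin sheath, was at 187 to 190 FPKM on day 3 and at 231, 233 and 277 FPKM on day 7, and Gjc3, an oligodendrocyte connexin, at 32.0 FPKM in each day 3 library and at 39.0, 39.7 and 52.3 FPKM on day 7. In these 4 genes all day 7 libraries lay above all day 3 libraries.

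Other myelin genes went opposite ways in library 3. Cnp, a phosphodiesterase of the cytoplasmic channels in myelin, was at 250, 251 and 256 FPKM on day 3 and at 295, 297 and 193 FPKM on day 7. Libraries 1 and 2 stood at 117% of day 3 and library 3 at 76.4%. The difference was called without library 3 (0.23 ± 0.015, adjusted p = 0.00827) and was 0.024 ± 0.18 with all 6. The same split was seen for Mog and Mag, surface proteins of the sheath. Mog was at 163, 163 and 127 FPKM against 140 to 142 FPKM, and Mag at 210, 213 and 107 FPKM against 186 to 191 FPKM. With all 6 libraries the difference of Mag is negative, at -0.16. Sham library 3 differed from sham libraries 1 and 2 in the same way, with Cnp at 279, 285 and 160 FPKM. The summed FPKM of that library and of day 7 library 3 were the lowest of the 12, at 180340 and 181738 against 197878 to 201358. The part of the library in these values was not tested further. The count of called myelin genes was 5 or 6 when another of the 5 libraries was left out. On day 14 the 3 libraries held 239 ± 1.14 FPKM of Cnp and 1569 ± 5.42 FPKM of Mbp (SD, n = 3), below day 3 for both.

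Peripheral nerve root also carries myelin. Of its markers, Prx stayed between 0.0564 and 0.125 FPKM and Pmp2 between 0 and 0.177 FPKM. Of the 10 genes of the nerve root list 6 were tested and 2 were called higher, against 0.430% of all genes, Mbp being 1 of them. The summed level was 1691 to 1709 FPKM on day 3 and 2033 to 2037 FPKM on day 7, nearly all of it Mbp. The part of nerve root in the myelin result was not tested.

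**Figure D3:**
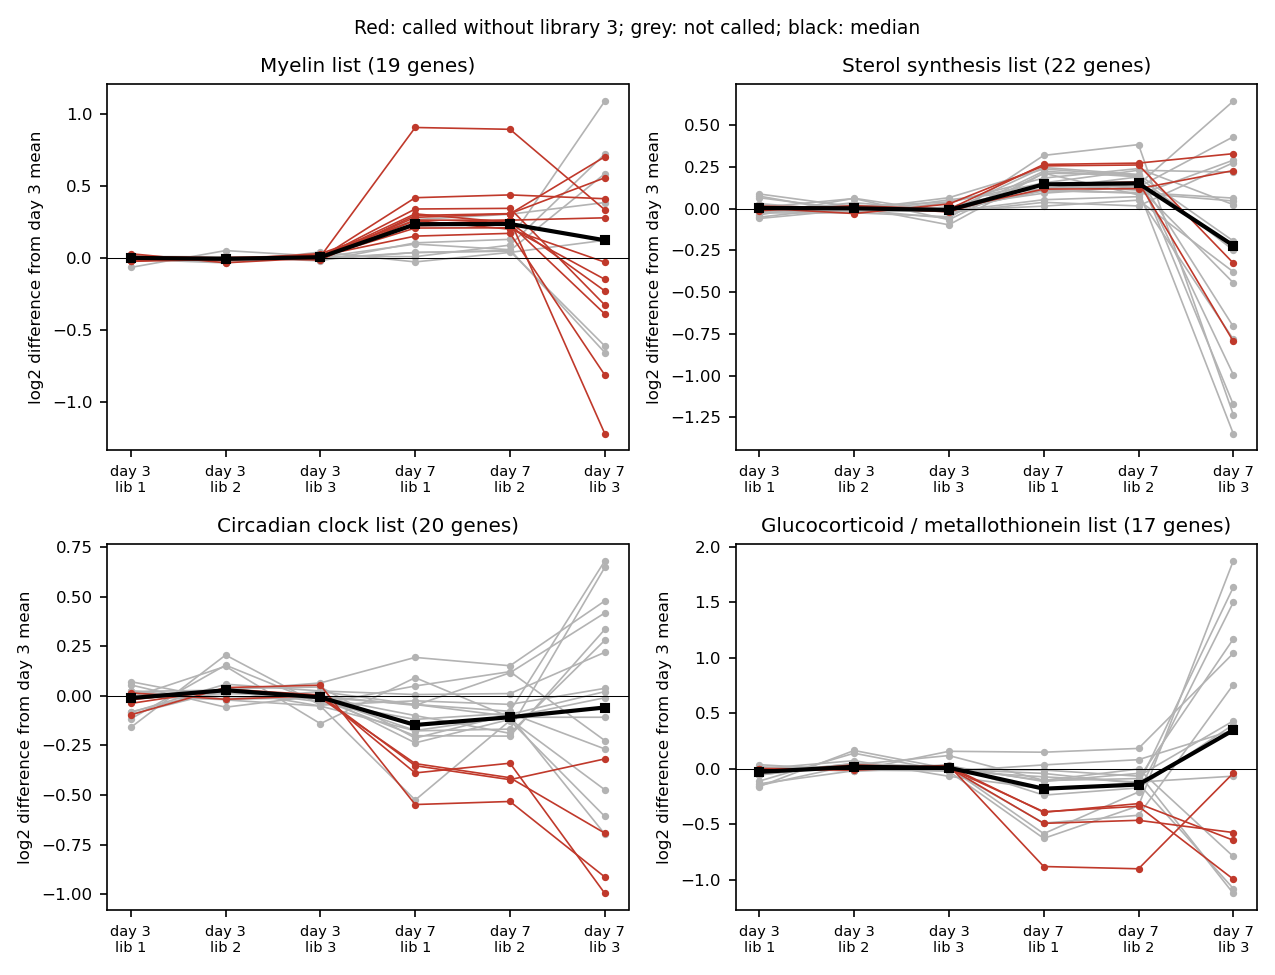
Each line is 1 gene of the named list, drawn over the 3 day 3 and 3 day 7 libraries as the log2 difference from its day 3 mean, on log2(FPKM + 0.5); red lines are genes called without library 3, grey lines are not called, and black is the list median. Nearly all myelin and sterol synthesis lines lie above 0 in day 7 libraries 1 and 2 and fan out to both sides of 0 in library 3, while the 4 called clock genes stay below 0 in all 3 day 7 libraries.

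The oligodendrocyte lineage before myelination gave 2 called genes of 12, both higher, against 0.430% of all genes. Gpr17, a receptor carried by precursors that have committed to become oligodendrocytes and lost on maturation, was at 11.8, 11.7 and 11.9 FPKM on day 3 and at 22.5, 22.3 and 14.98 FPKM on day 7. All day 7 values were above day 3, with library 3 the lowest of them (log2 difference 0.90 ± 0.025, adjusted p = 0.000498, and 0.33 in library 3). Gpr17 was 1 of the 12 called myelin genes too. In sham cord it was at 23.9, 23.1 and 9.66 FPKM and on day 14 at 12.6 ± 0.0985 FPKM (SD, n = 3), so day 3 and day 14 were alike and lay below 2 of the 3 sham libraries. Tnr, tenascin-R of the perineuronal matrix, was at 10.9, 10.3 and 10.5 FPKM on day 3 and 13.3, 13.1 and 16.9 FPKM on day 7 (adjusted p = 0.0391), and was called in none of the 5 fits that left out 1 more library, against each of them for Gpr17. The precursor markers Pdgfra, at 3.89 to 3.98 FPKM and then 3.95 to 5.73 FPKM, and Cspg4, at 1.73 to 1.82 FPKM and then 1.90, 1.93 and 1.01 FPKM, were not called.

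Sterol and fatty acid synthesis followed the myelin genes in libraries 1 and 2. All 22 members tested were above day 3 in the mean of these libraries, as were 6989 of the 15594 genes tested. Of the 22, 4 were called higher, against 0.430% of all genes, and none lower, and the median log2 difference was 0.15. In library 3 only 10 of the 22 were above day 3 and the median was -0.22. Hmgcs1, which makes HMG-CoA for the mevalonate pathway, was at 104, 107 and 105 FPKM on day 3 and 127, 127 and 132 FPKM on day 7. It lay wholly above day 3 (log2 difference 0.27 ± 0.016, adjusted p = 0.00636, and 0.33 in library 3). Scd2, a desaturase of myelin lipids, was at 468 to 471 FPKM and then 509, 510 and 550 FPKM (adjusted p = 0.0165). The count of called sterol genes was 0 or 1 when another of the 5 libraries was left out.

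Of 17 metallothioneins and genes that glucocorticoids induce, 4 were called lower on day 7, namely Mt2, Mt1, Sgk1 and Per1, and none higher, against 0.295% of all genes called lower. Mt2, a small cysteine-rich protein that binds zinc and copper (ENSMUSG00000031762, chr8:94172664-94173568, plus strand), was at 255, 254 and 256 FPKM on day 3 and 181, 184 and 171 FPKM on day 7. All 3 day 7 libraries lay far below day 3, library 3 included. The log2 difference was -0.48 ± 0.014 (adjusted p = 0.000548) without library 3, -0.58 in library 3 and -0.51 ± 0.065 with all 6 (adjusted p = 0.502). Its neighbour Mt1 was at 183, 182 and 186 FPKM on day 3 and 140, 147 and 117 FPKM on day 7 (log2 difference -0.35 ± 0.027, adjusted p = 0.0119). Both genes stood lower in sham than on day 3, Mt2 at 201 ± 4.82 FPKM and Mt1 at 152 ± 10.9 FPKM (SD, n = 3). On day 14 Mt2 was at 246 ± 2.49 FPKM and Mt1 at 168 ± 1.55 FPKM. Mt3, the brain form, was at 164 to 167 FPKM and then 160, 151 and 77.9 FPKM and was not called.

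Metallothionein genes are switched on by zinc through metal response elements, and the 250 bases before the start of each gene are shown for that reason, with matches to TGCACNC or TGCGCNC on either strand in capitals (RefSeq, GRCm38.p6, plus strand). The windows are chr8:94172368-94172617 for Mt2, with 3 matches, and chr8:94178839-94179088 for Mt1, with 1. Windows with 3 or more matches make up 1.26% of all promoters and 2.11% of those of genes tested. Windows with at least 1 match make up 21.4% and 30.1%, so the single match in the Mt1 window is common. The counts of matches hold for these windows, which rest on the RefSeq start. For Mt2 the gene start in the deposited data, 94172664, lies after its window, and the bases between were not searched. Bases after the Mt1 window were not searched either, so its count does not describe the whole promoter.
Mt2: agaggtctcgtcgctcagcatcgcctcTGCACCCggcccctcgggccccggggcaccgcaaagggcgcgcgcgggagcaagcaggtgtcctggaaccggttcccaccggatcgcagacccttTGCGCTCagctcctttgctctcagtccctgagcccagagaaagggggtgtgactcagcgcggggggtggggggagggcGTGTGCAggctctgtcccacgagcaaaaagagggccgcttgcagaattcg
Mt1: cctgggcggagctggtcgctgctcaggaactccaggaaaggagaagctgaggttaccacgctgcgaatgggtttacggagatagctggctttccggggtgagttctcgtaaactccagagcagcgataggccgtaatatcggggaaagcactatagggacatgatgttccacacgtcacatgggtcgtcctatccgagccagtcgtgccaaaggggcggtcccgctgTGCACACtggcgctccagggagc

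The median log2 difference of the 17 members was -0.16 without library 3. In library 3 the median was 0.35, of the opposite sign, with 9 members higher and 8 lower, and with all 6 libraries it was -0.05. Sgk1, a kinase that glucocorticoids and salt stress induce, was at 17.5, 17.9 and 18.2 FPKM on day 3 and 9.46, 9.32 and 17.3 FPKM on day 7. Libraries 1 and 2 stood at 52.6% of day 3 and library 3 at 97.1%, just below the lowest day 3 library (log2 difference -0.89 ± 0.030, adjusted p = 0.000735). Fkbp5, a chaperone partner of the glucocorticoid receptor, was not called, at 2.46 to 2.60 FPKM and then 2.06, 2.18 and 3.48 FPKM. Tsc22d3, another such target, was at 27.2 to 28.3 FPKM and then 26.2, 25.3 and 26.3 FPKM, also not called. Klf9 and Zbtb16, transcription factors of the same response, were below day 3 in libraries 1 and 2 and far above it in library 3, with Klf9 at 16.6, 16.8 and 40.8 FPKM against 17.6 to 18.1 FPKM and Zbtb16 at 2.31, 2.38 and 9.37 FPKM against 2.53 to 2.84 FPKM. Of this list 2 or 3 members were called when another of the 5 libraries was left out.

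The circadian clock keeps time by a loop in which Clock and Arntl switch on Per, Cry and Nr1d1 genes, whose products switch them off again, and Dbp, Tef and Hlf are output transcription factors of the loop. Of 20 clock genes tested, 4 were called lower and none higher, against 0.295% of all genes called lower, and 8 lay wholly below day 3, against 9.77%. The median log2 difference was -0.14 without library 3 and -0.06 in library 3, where 9 of the 20 were higher. Dbp was at 11.5, 12.7 and 12.8 FPKM on day 3 and 8.25, 8.34 and 6.29 FPKM on day 7 (log2 difference -0.54 ± 0.054, adjusted p = 0.0274, and -0.91 in library 3). Nr1d1, the repressor REV-ERB alpha, was at 19.2, 19.9 and 19.3 FPKM and then 15.3, 14.5 and 11.9 FPKM (adjusted p = 0.0224). Per1 was at 7.74, 8.16 and 7.99 FPKM and then 5.96, 6.18 and 3.74 FPKM (adjusted p = 0.0334), and Per2 at 3.68, 3.58 and 3.64 FPKM and then 2.74, 2.58 and 2.81 FPKM (adjusted p = 0.0483). In these 4 genes every day 7 library lay below every day 3 library. Per1 was counted in the glucocorticoid list too. Arntl, which runs opposite to Per genes in the daily cycle, was at 1.64, 1.83 and 1.89 FPKM on day 3 and above that in each day 7 library, at 2.11, 2.04 and 2.68 FPKM, without being called. Hlf and Nr1d2 were below day 3 in libraries 1 and 2 and above it in library 3, with Hlf at 5.85, 5.88 and 10.7 FPKM against 6.42 to 7.04 FPKM and Nr1d2 at 14.1, 14.1 and 20.6 FPKM against 16.1 to 16.6 FPKM. Clock itself was at 5.21 to 5.37 FPKM and then 5.11, 4.98 and 8.77 FPKM.

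The levels of Dbp were 5.89 ± 0.588 FPKM in sham and 12.4 ± 0.607 FPKM on day 14 (SD, n = 3), and those of Nr1d1 13.3 ± 0.991 FPKM and 21.4 ± 1.05 FPKM. Day 7 thus lay toward sham and day 3 toward day 14 for both. The labels used here give no hour of sampling, and the day and the hour cannot be told apart. The E-box CACGTG, through which Clock and Arntl act, was found in 5 of the 16 clock genes with a promoter entry, against 9.71% of genes tested with an entry. The count of called clock genes was 0 or 1 when another of the 5 libraries was left out.

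Among astrocyte genes 2 identity markers were called higher and 1 lower of 15, against 0.430% and 0.295% of all genes. Aqp4, the water channel of astrocyte endfeet, was at 82.9, 83.9 and 84.5 FPKM on day 3 and 96.1, 96.6 and 140 FPKM on day 7 (adjusted p = 0.0161), wholly above. S100b, a calcium-binding protein of astrocytes and oligodendrocytes, was at 419 to 426 FPKM and then 461, 459 and 309 FPKM (adjusted p = 0.0274), so library 3 went the other way and the difference with all 6 was -0.069. Aldoc, the astrocyte aldolase, was at 434 to 437 FPKM and then 405, 410 and 339 FPKM (adjusted p = 0.0391), wholly below. Gfap, the intermediate filament that rises in reactive astrocytes, was at 357 to 359 FPKM on day 3 and at 381, 381 and 394 FPKM on day 7. This difference of 0.091 ± 0.010 on the log2 scale was called (adjusted p = 0.0381), 1 of 14 members of the reactive list, and was the smallest called difference among the 67 higher genes. None of these 4 astrocyte genes was called when 1 more of the 5 libraries was left out.

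Ptgds, Sparc, Gstm1 and Itih3 were called lower, and each lay below day 3 in all 3 day 7 libraries. Sparc was the 1 called member of 17 in the collagen and matrix list, against 0.295% of all genes called lower. Of the 17, 11 were higher in the mean of libraries 1 and 2, with a median log2 difference of 0.03. Ptgds, prostaglandin D synthase of oligodendrocytes and meninges, was at 291, 285 and 291 FPKM on day 3 and 222, 218 and 215 FPKM on day 7 (log2 difference -0.39 ± 0.016, adjusted p = 0.00186, and -0.43 in library 3). Sparc, a collagen-binding glycoprotein of astrocytes, microglia and vessels, was at 361, 356 and 351 FPKM and then 293, 299 and 289 FPKM (log2 difference -0.27 ± 0.017, adjusted p = 0.00767, and -0.30 in library 3). Gstm1, a glutathione transferase of astrocytes, was at 124 to 129 FPKM and then 94.0, 97.7 and 104 FPKM (adjusted p = 0.00882). Itih3, an inter-alpha-trypsin inhibitor chain that binds hyaluronan, was at 43.7 to 45.9 FPKM and then 31.8, 33.8 and 41.8 FPKM (adjusted p = 0.0165). The meningeal fibroblast markers Col1a1, Dcn and Lum were all below 2 FPKM, at 0.879 to 1.65, 1.39 to 1.67 and 0.289 to 0.426 FPKM on day 3 and 0.767 to 1.32, 1.09 to 1.51 and 0.0799 to 0.303 FPKM on day 7. The summed meningeal list, to which Ptgds belongs and of which it is most, was 302 to 307 FPKM and then 229 to 238 FPKM, and 9 of its 12 members were tested. The part of meninges in the Ptgds result was not tested.

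Some of the largest differences concerned transcripts that are hard to count. Erdr1 (chrX:170009659-170019281) was at 12.8, 13.1 and 12.4 FPKM on day 3 and 2.25, 2.04 and 5.63 FPKM on day 7, the lowest day 3 value being more than the highest day 7 value (log2 difference -2.33 ± 0.051, adjusted p = 0.00033, and -1.11 in library 3). It has a near-identical copy, listed as Gm47283, with which it can share reads. Lars2, a mitochondrial leucyl-tRNA synthetase, was at 18.1 to 18.7 FPKM and then 12.1, 11.9 and 1.18 FPKM, and Gm23935, a short RNA feature listed on chr16, at 495 to 515 FPKM and then 342, 325 and 0.501 FPKM. Both were called lower, and both were lowest by far in library 3. Sham cord was split in the same way, with Lars2 at 108, 108 and 1.11 FPKM and Gm23935 at 3891, 3812 and 1.43 FPKM in libraries 1 to 3. They were the 2 called of 12 tested in a list kept as a check of RNA quality, against 0.295% of all genes called lower. The part of RNA quality in their day 7 values was not tested. Mir186, a microRNA precursor (chr3:157544279-157544349), was called higher, at 4.16 to 4.33 FPKM and then 7.08, 6.59 and 8.45 FPKM; the sources used here do not say whether fragments of longer transcripts across it were counted. Rps6ka3, a growth factor-activated kinase, was at 3.35 to 3.58 FPKM and then 1.51, 1.42 and 2.53 FPKM (adjusted p = 0.00529), and Rgs6, a regulator of G protein signalling, at 2.49 to 2.68 FPKM and then 5.06, 5.14 and 7.98 FPKM (adjusted p = 0.00529). Hipk2, a nuclear kinase, was at 10.8 to 11.4 FPKM and then 14.0, 13.9 and 21.8 FPKM (adjusted p = 0.0277). Also called and wholly on 1 side of day 3 were 5 genes with adjusted p-values of 0.0249 to 0.0483. U2surp was higher, at 2.57 to 2.68 FPKM and then 3.82, 3.67 and 4.63 FPKM, and so was Zkscan3, at 7.75 to 8.21 FPKM and then 10.6, 10.7 and 8.99 FPKM. Tmem267 was lower, at 3.14 to 3.37 FPKM and then 1.81, 1.33 and 2.97 FPKM. Zfp969 was at 3.55 to 3.90 FPKM and then 2.42, 2.21 and 3.26 FPKM, and Psme2b at 5.44 to 5.82 FPKM and then 4.12, 3.80 and 4.46 FPKM. In Zkscan3, Tmem267 and Zfp969 library 3 lay nearer to day 3 than libraries 1 and 2 did. Zfp969 belongs to a family of similar zinc finger genes on chr2 that can share reads.

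Of 34 ribosomal protein genes tested, 3 were called lower and none higher, against 0.295% of all genes called lower, and 18 lay wholly below day 3, against 9.77%. Their median log2 difference was -0.07 without library 3 and -0.61 in library 3. Rps29 was at 169 to 172 FPKM on day 3 and 149, 149 and 44.3 FPKM on day 7 (adjusted p = 0.0119). Rpl3 was at 115 to 119 FPKM and then 105, 106 and 97.5 FPKM (adjusted p = 0.0444), and Rps4x at 97.0 to 99.5 FPKM and then 87.5, 87.6 and 93.7 FPKM (adjusted p = 0.0297). No ribosomal protein gene was called when another of the 5 libraries was left out. Among immediate early genes, which neuronal activity induces within minutes, Jun and Jund were called higher of 17, against 0.430% of all genes, but Jund was at 35.2, 34.8 and 18.2 FPKM on day 7 against 28.1 to 29.2 FPKM. Fos was at 5.37 to 6.09 FPKM and then 5.46, 5.13 and 3.02 FPKM, not called.

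Immune and microglial lists gave no calls between the 2 days. None of 14 homeostatic microglia genes, 20 microglial activation genes, 8 complement genes, 9 chemokine and cytokine genes, 22 interferon response genes or 8 antigen presentation genes was called. Of all genes 0.725% were called, so lists of this size can lack calls at that share. All 8 antigen presentation genes were below day 3 in the mean of libraries 1 and 2, and 7 in library 3. Wholly below day 3 lay 4 of these 8 and 4 of the 20 microglial activation genes, against 9.77% of all genes. Wholly above lay 0 and 1. Cx3cr1, the fractalkine receptor of microglia, was at 9.01 to 9.89 FPKM and then 8.85, 9.23 and 10.9 FPKM, and C1qa, the first complement subunit, at 31.9 to 33.8 FPKM and then 35.7, 35.9 and 39.6 FPKM. C1qa lay wholly above day 3 with an adjusted p of 0.173. C4b, a complement component that astrocytes and oligodendrocytes make, lay wholly below day 3 at 7.56, 7.69 and 5.55 FPKM against 9.30 to 10.4 FPKM (adjusted p = 0.0716). Neither the 12 general neuron genes nor the 23 transmitter receptor genes tested held a called member, and the medians of these lists were -0.01 and 0.02 without library 3, but -0.42 and 0.37 in library 3.

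**Figure D4:**
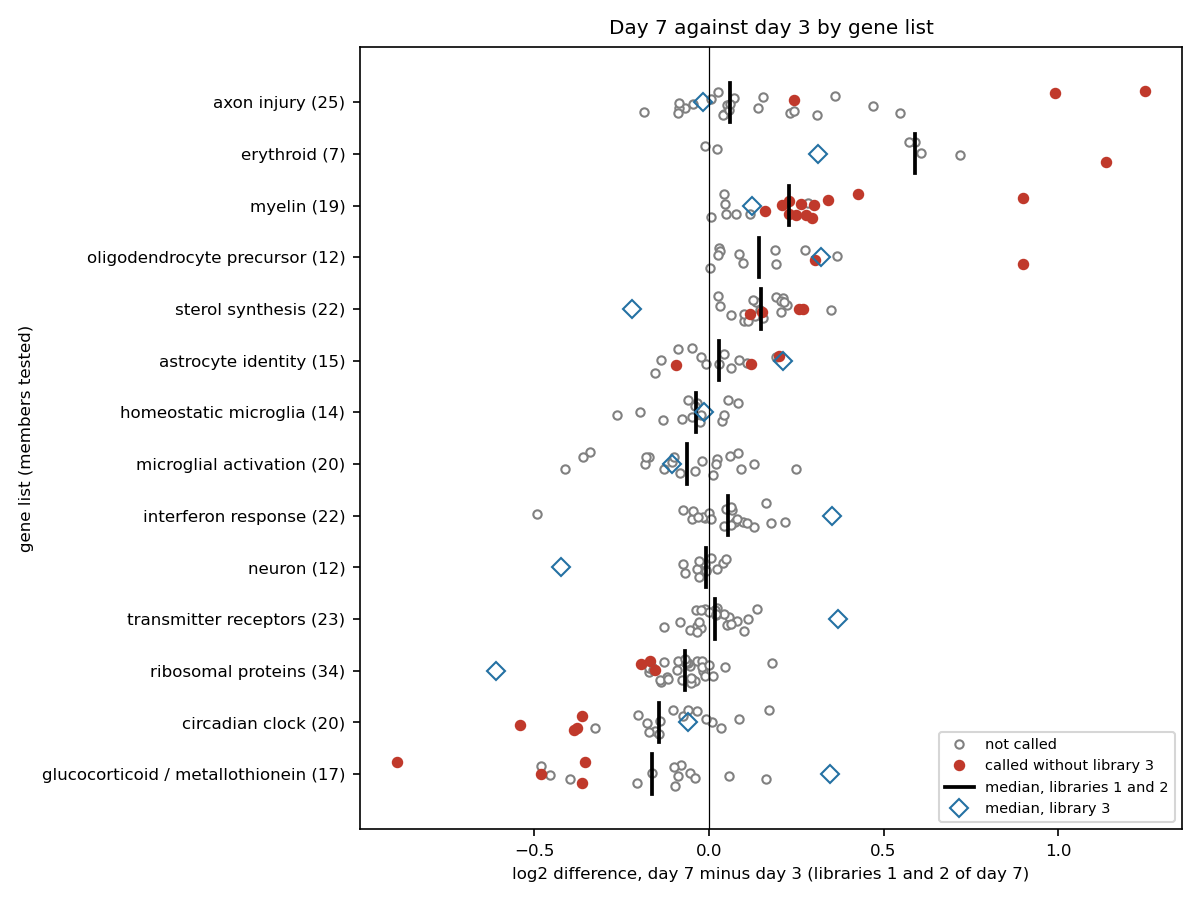
Log2 difference, day 7 libraries 1 and 2 minus day 3, for each member tested of 14 gene lists, named on the y axis with the number tested; filled red points are members called in either direction, grey circles are not called, black bars are list medians and blue diamonds are medians in day 7 library 3. The 12 filled myelin points all lie to the right of 0 and the 4 filled clock points to the left, while in the ribosomal, neuron, receptor and glucocorticoid rows the diamond lies far from the bar.

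The tissue label was met by its markers in all 6 libraries, with Slc17a6 of excitatory neurons at 29.3 to 36.9 FPKM, Slc6a5 of glycinergic neurons at 44.3 to 51.9 FPKM, Chat of motor neurons at 2.62 to 6.78 FPKM and the lumbosacral gene Hoxc10 at 36.8 to 49.8 FPKM. Transcripts of other organs were uneven between libraries of both days. The lung secretoglobin Scgb1a1 was at 119 FPKM in day 3 library 1 and listed at 0 in the other 5, and the liver product Alb was at 85.4 FPKM in day 3 library 2 and at most 4.30 FPKM in the others. The skeletal muscle list summed to 3.79, 12.5 and 1.92 FPKM on day 3 and 2.15, 15.4 and 14.5 FPKM on day 7, high in day 3 library 2 and in day 7 libraries 2 and 3. Acta1, skeletal actin, was at 4.20, 4.86 and 3.11 FPKM in those 3 libraries and at most 0.843 FPKM in the other 3. None of the 8 lung and liver genes or the 7 muscle genes tested was called.

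The same study mapped N6-methyladenosine (m6A), a common mark within mRNA that is read by enriching modified fragments with an antibody, as 1 peak list per group. At least 1 peak was listed for 56 of the 67 called higher genes on day 3 and for 53 on day 7, and for 37 and 34 of the 46 called lower genes. Over all genes tested the shares were 78.6% on day 3 and 69.5% on day 7. The called genes were more abundant, with a median of 26.4 FPKM for higher and 38.4 FPKM for lower genes, against 4.5 FPKM over all. Among genes tested with a mean of at least 5 FPKM the shares were 82.3% and 71.3%. Called higher genes had 83.6% and 79.1%, and called lower genes 80.4% and 73.9%, so the lower set was below that nearer background on day 3. All 19 myelin genes had a peak on both days, while the ribosomal protein genes had one in 15 of 34 on day 3 and 8 of 34 on day 7. The 2 lists differ in length, 40195 and 34136 peaks, and with 1 list per group no difference between days was tested.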

How the data were processed

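Poly(A) RNA of spinal cord was sequenced, and the input libraries of days 3 and 7 (3 each) are compared here. The deposited table gives FPKM per gene and library, per the file headers; per the submitters' processing notes HISAT2, ChIPseeker, StringTie and edgeR were used, with no versions or settings. The deposited peak lists give a fold enrichment (a ratio) per peak, used only to count genes with a peak. Genome build, use of strand in counting and peak caller: not given in the sources used here. Of 14781 symbols matched to RefSeq GRCm38.p6, 99.97% overlapped the gene of the same name. Read counts were not used here, so depth is unknown and no counting error is given.

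Values were log2(FPKM + 0.5). The 2 groups were compared by limma-trend (limma 3.58.1, R 4.3.3), with Benjamini-Hochberg adjustment over the 15594 genes and a threshold of 0.05. Errors of log2 differences are standard errors from this fit. The fit was made with all 6 libraries and again without day 7 library 3; p-values in the report are from the second unless stated. The steps were checked on simulated data. The library, the lists and the members were chosen with earlier results of these data known. Genes named were up to 12 each way with the largest fold change among those called whose 3 day 7 values lie on 1 side of day 3 (mean of at least 1 FPKM, no predicted name), up to 6 called members per list, or the 2 of smallest p where none was called, and markers of other tissues. Atf3, Gap43, Gal, Npy, Gjc3, Cnp, Mag, Mt3, Fkbp5, Tsc22d3, Klf9, Zbtb16, Arntl, Clock, Hlf, Nr1d2, Pdgfra, Cspg4, Fos, S100a8, S100a9, Gm23935 and the promoter motifs were named after their values were seen. Alternatives tried were other pseudocounts (0.1 and 1), other filters (none, or 5 FPKM), scaling to TPM, by median of ratios or by quantiles, blocking on replicate number, robust eBayes, array weights, all 12 libraries as 4 groups, averaged libraries and leaving out each library. Results of some genes are not reported here.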

Additional observations from a re-analysis of the deposited data

How the results depend on the processing

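With all 6 libraries 0 genes were called under pseudocounts of 0.1 and 1, without a filter, with a filter of 5 FPKM, under TPM, median-of-ratios and quantile scaling, with robust eBayes and with averaged libraries. Leaving out 1 library gave 0 to 113 calls, 1 without day 7 library 2 and 113 without day 7 library 3. Array weights, which gave day 7 library 3 a weight of 0.0359, called 100 genes, 71 of them among the 113, and all 12 libraries as 4 groups called 2. Without day 7 library 3 the count was 23 with no filter, 192 with a filter of 5 FPKM, 320 with 10 libraries as 4 groups (103 of them among the 113) and 18 to 26 when 1 more library was left out; the other settings gave 101 to 149. Of the 113 genes, 89 were called in none of the fits that left out 1 more library.

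The replicate numbers were not taken as pairs: deviations of same-numbered libraries correlated at 0.106, 0.163 and 0.0401, although each library correlated best with its own number. With a replicate block 0 genes were called with all 6 libraries and 9 without day 7 library 3, leaving 1 residual degree of freedom there.

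Of 891 values of named genes under alternatives to the fit of all 6 libraries, 12 did not keep the sign of that fit. Mbp is counted among these with a difference of 0, which is no reversal. By quantile scaling Mbp was at 0 and S100b at 0.085, and under TPM Jund was at 0.023. Leaving out 1 library gave -0.082 to 0.23 for Cnp, -0.33 to 0.16 for Mag, -0.17 to 0.12 for S100b and -0.19 to 0.28 for Jund, with the highest value of each without day 7 library 3. With array weights Mag was at 0.15, S100b at 0.12 and Jund at 0.27, and with averaged libraries Cnp was at -0.079. The cause was not tested. Depth is unknown, so what it limits could not be measured.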
